A study of Mus musculus with 12 samples.

Results

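The genes described here are 8 secreted antagonists of Wnt signalling: SFRP1, SFRP2, SFRP4, SFRP5, FRZB, WIF1, DKK2 and DKK3. They were chosen by name, with earlier results of the same data known, and were read wherever the authors' table listed them. SFRP1, SFRP2, SFRP4, SFRP5, FRZB and DKK3 had a row at both sites, so 6 of 8 members were found among 13957 gene symbols in all, and WIF1 and DKK2 were not analysed here. The 12 RNA-seq libraries were made from spinal cord of male mice, 4 months old, in segments taken 14 days after a contusion at thoracic vertebra T9. All mice carried human ApoE4 in place of mouse ApoE and all were injured, so uninjured cord and other ApoE variants are no part of the comparison. The 4 groups of 3 libraries were ApoE4 synj1+/+ above the lesion, ApoE4 synj1+/- above the lesion, ApoE4 synj1+/+ below the lesion and ApoE4 synj1+/- below the lesion. Synj1+/+ mice had both alleles of synaptojanin 1, a lipid phosphatase, intact, and synj1+/- mice were bred with 1 inactive allele, which is not limited to a cell type.

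Wnt proteins are secreted lipid-modified ligands that bind Frizzled receptors and LRP5 or LRP6 co-receptors, and the canonical branch stabilises beta-catenin, which then acts with TCF and LEF factors on target genes. Secreted Frizzled-related proteins (SFRPs), FRZB and WIF1 bind Wnt proteins outside the cell, while most Dickkopf (DKK) proteins bind the LRP co-receptors. DKK3 is the divergent Dickkopf, and its action on Wnt signalling is less settled. In the spinal cord, Wnt signalling is known from dorsal patterning and axon guidance in the embryo and from glial and scar responses after injury.

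The SFRPs fall into subfamilies with alike coding sequences, SFRP1, SFRP2 and SFRP5 in one and SFRP4 and FRZB in the other, and reads could be split between genes that share long stretches. The longest identical stretches between the coding sequences of members are shown for this reason, from the GENCODE M21 transcripts on GRCm38, 5′ to 3′ on the coding strand.
FRZB and SFRP4: gatgcccaaccacctgcaccacagcac
SFRP1 and SFRP5: gctgcccaacctgctggagcacgaga
SFRP2 and SFRP5: catgcggctgcccaacctgctgg
SFRP1 and SFRP2: gctgcccaacctgctgg
The stretch of 27 bases between FRZB and SFRP4 was the longest of the 15 pairs. SFRP4 shared 12 bases or fewer with each of SFRP1, SFRP2, SFRP5 and DKK3. All of these stretches are shorter than 1 read by the study's methods, and no member overlapped another gene in the RefSeq annotation of GRCm38.p6. SFRP4 spans chromosome 13 from 19623175 to 19632825, and its nearest neighbour, EPDR1, lies 3345 bp away.

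The authors' table gives 1 value per gene and group, which combines the 3 libraries. There are therefore no replicate values, no spread and no test here, and every difference below is a difference between single combined values. The lowest value in the table was exactly 1, and the values appear to have 1 added to them. A gene was counted as higher or lower when its 2 values differed by 1.5-fold or more on this scale. Genotype ratios have the libraries labelled synj1+/- as numerator.

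SYNJ1, the targeted gene, went against the labels. Above the lesion it was listed at 1905 in the libraries labelled synj1+/+ and 2404 in those labelled synj1+/-, a ratio of 1.26. Below the lesion the values were 1847 and 2593, a ratio of 1.40. By the study's methods, genotypes of the mice were checked by PCR. SYNJ1 in these libraries nevertheless ran the other way, and why was not tested. Each genotype direction given here is therefore a direction between the libraries so labelled.

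SFRP4 carried the one large difference among the antagonists. SFRP4 is a secreted Frizzled-related protein known from bone and connective tissue. It was listed at 2.46 in the above-lesion libraries labelled synj1+/+, 2.57 in the above-lesion libraries labelled synj1+/-, 30.2 in the below-lesion libraries labelled synj1+/+ and 3.08 in the below-lesion libraries labelled synj1+/-. The third of these values stood apart, and the other 3 groups lay close to the lowest value the table can hold. Below the lesion SFRP4 was 9.82-fold lower in the libraries labelled synj1+/-, and 14.1-fold lower once the added 1 was removed. Its log2 ratio of -3.30 was the third lowest of 12338 genes listed below the lesion, after H19, a long non-coding RNA of fetal and mesenchymal tissue, at -3.42 and SMIM22 at -3.32. With a pseudocount of 10 in place of 1 the log2 ratio was -1.70. Whether all 3 libraries of the high group share the value cannot be read from a combined value.

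**Figure D1:**
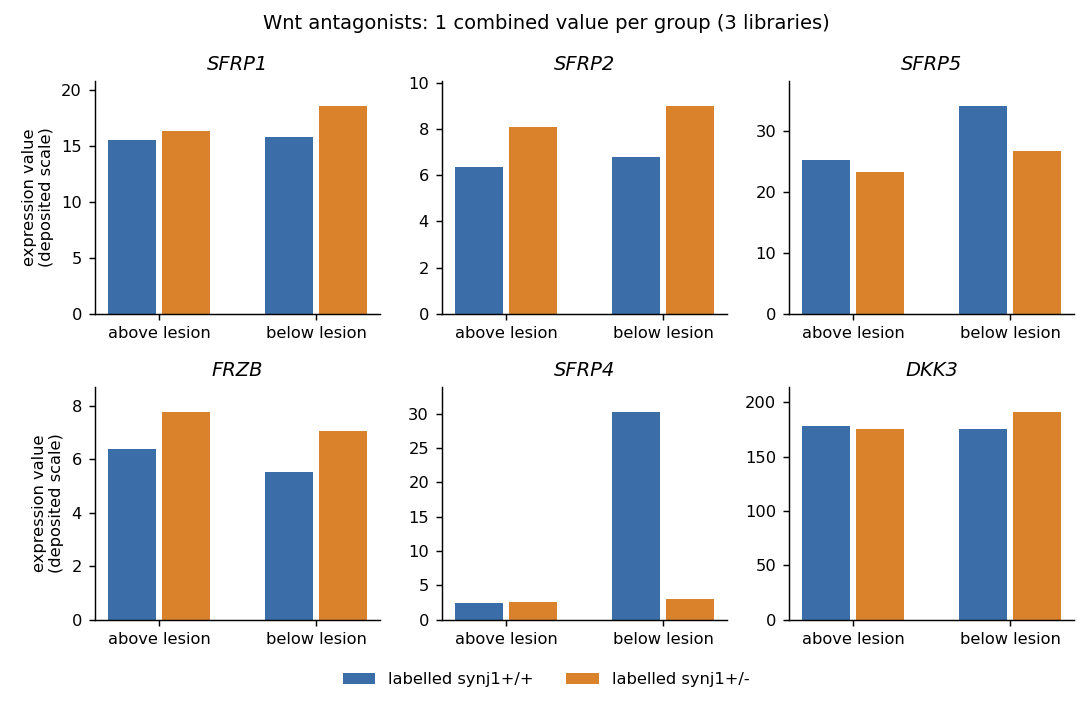
Expression values of the 6 listed antagonists on the deposited scale, 1 panel per gene with its own axis from 0. Bars give the single combined value of each group above and below the lesion, with no error because libraries are not listed singly. SFRP4 is at 30.2 in the below-lesion libraries labelled synj1+/+ and between 2.46 and 3.08 in the other groups. The 4 bars of each other gene differ far less, those of SFRP5 running from 23.3 to 34.0.

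The other SFRPs differed little between the groups, and in different directions. SFRP1, which binds Wnt proteins and is made by neural progenitors and glia, was listed at 15.5 and 16.3 above the lesion and at 15.8 and 18.6 below it, in the groups labelled synj1+/+ and synj1+/- in that order. SFRP2 was listed at 6.36 and 8.09 above and at 6.80 and 9.01 below. SFRP5 was listed at 25.1 and 23.3 above and at 34.0 and 26.7 below. SFRP1 and SFRP2 were, at both sites, higher in the libraries labelled synj1+/-, and SFRP5 was lower there, yet each difference stayed under 1.5-fold.

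SFRP2 was among the higher ratios of all genes without reaching 1.5-fold. Its log2 ratio was 0.35 above the lesion, where 3.49% of genes had a higher one, and 0.41 below, where 4.30% did. FRZB, also called SFRP3 and known for its part in cartilage and bone, followed it closely. FRZB was listed at 6.38 and 7.75 above the lesion and at 5.53 and 7.07 below, with log2 ratios of 0.28 and 0.35, and 5.53% and 6.40% of genes had a higher one. Both genes were low, with every value less 1 under 10. With a pseudocount of 10 in place of 1, the log2 ratios of SFRP2 were 0.15 above and 0.19 below. Those of FRZB were 0.12 and 0.14.

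DKK3 had like values in all groups. It was listed at 178 and 175 above the lesion and at 176 and 191 below, with log2 ratios of -0.02 and 0.12.

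The genotype contrast had a part in the choice of these genes, so the following counts are a description and nothing is read from them. Above the lesion 0 of 6 members were lower and 0 were higher by 1.5-fold, while 1.94% of all 13647 listed genes were lower and 0.791% higher. Below the lesion 1 of 6 was lower, namely SFRP4, and 0 were higher, while 4.38% of 12338 genes were lower and 1.16% higher. The median log2 ratio of the members was 0.07 above the lesion and 0.18 below, beside -0.0039 and 0.014 over all listed genes.

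**Figure D2:**
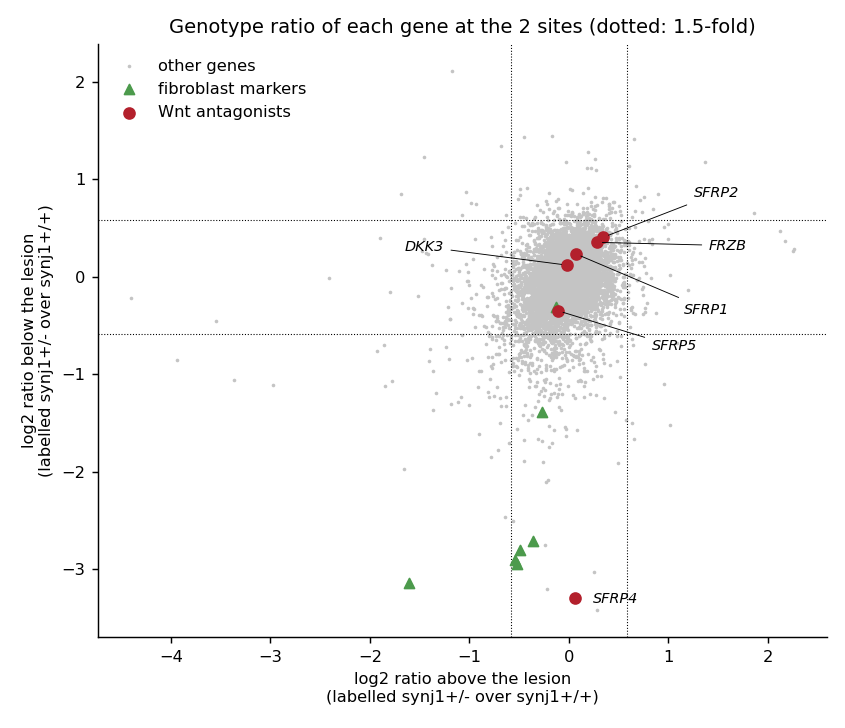
Log2 ratio between the libraries labelled synj1+/- (numerator) and synj1+/+, above the lesion (horizontal) and below it (vertical), 1 point for each of 12023 genes listed at both sites, with dotted lines at 1.5-fold. SFRP4 lies at 0.06 above and -3.30 below the lesion, and the other 5 antagonists (circles) lie inside the dotted lines; 6 of the 7 fibroblast markers (triangles) lie under the lower line.

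The same values were set side by side between the sites within each label. The sites were normalized separately. The study counts 3 injured mice of each genotype for RNA-seq, so each mouse seems to have given both segments, and the sites are then not independent. SFRP4 was 12.3-fold higher below than above the lesion in the libraries labelled synj1+/+ and 1.20-fold in those labelled synj1+/-. In the libraries labelled synj1+/+, 3 of 12023 genes had a larger ratio: MGP, COL3A1 and DCN, which encode matrix Gla protein, a fibrillar collagen chain and the proteoglycan decorin. SFRP5 came next among the members, 1.36-fold higher below in the libraries labelled synj1+/+ and 1.15-fold in those labelled synj1+/-. The ratios of SFRP1 were 1.02 and 1.14, those of SFRP2 were 1.07 and 1.11, and those of DKK3 were 0.988 and 1.09. FRZB alone of the 6 was lower below than above under both labels, with ratios of 0.868 and 0.911. By 1.5-fold, 1 member was higher below and 0 were lower in the libraries labelled synj1+/+, where 3.24% of genes were higher and 1.36% lower. In the libraries labelled synj1+/- 0 members were higher or lower, where 1.43% of genes were higher and 0.832% lower.

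How far SFRP4 stood out was then measured by its value in the below-lesion libraries labelled synj1+/+ over the highest of the other 3 groups, a measure chosen after its values were seen. For SFRP4 the highest of the other 3 was the below-lesion group labelled synj1+/-. Its ratio of 9.82 thus repeats the genotype fold already given. The genotype contrast had a part in the choice of this gene, so its rank is a description and nothing is read from it. By this ratio SFRP4 ranked 1 of 12023 genes. It ranked 1 with the added 1 removed and 9 with a pseudocount of 10. In all, 12 genes reached 5-fold. After SFRP4 they were MGP, H19, COL3A1, IGFBP6, LUM, COL1A1, DCN, ISLR, COL1A2, POSTN and MFAP4, with ratios from 9.21 for MGP to 5.45 for MFAP4. Of the 12 genes, 5 belong to the list of 9 fibroblast markers described next, 7 of which were listed at both sites and so could be ranked. No other group had as many such genes: 3 reached 5-fold in the above-lesion libraries labelled synj1+/+ and 0 in each group with the synj1+/- label.

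**Figure D3:**
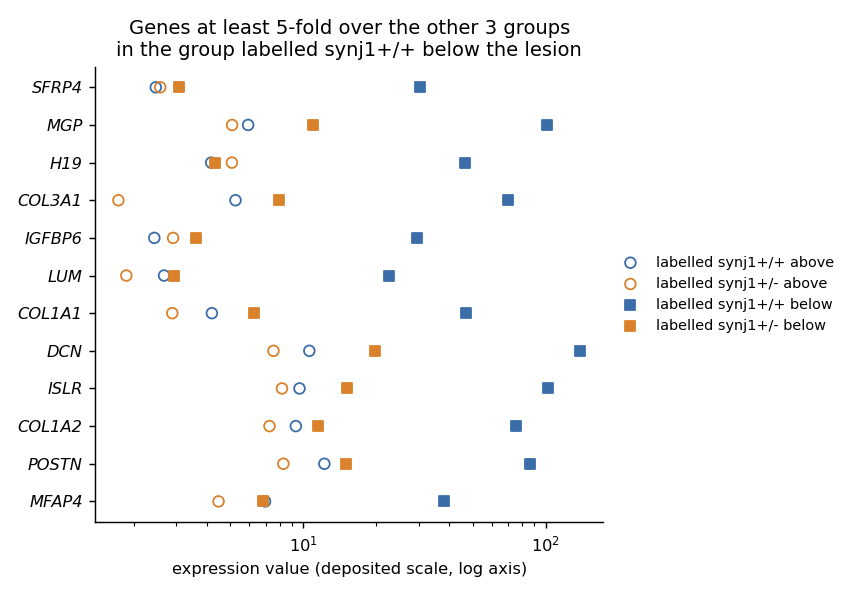
Expression values on the deposited scale (log axis) in the 4 groups for the 12 genes whose value in the below-lesion libraries labelled synj1+/+ (blue squares) was at least 5-fold over each other group, ordered by that ratio from SFRP4 at the top. In each row the blue square stands to the right, at 30.2 for SFRP4 and 138.5 for DCN. The other 3 groups span 2.46 to 3.08 for SFRP4 and are more spread for genes such as COL3A1, from 1.73 to 7.91.

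Fibroblast markers differed in the same direction as SFRP4 below the lesion. Of 9 markers, 8 were lower in the below-lesion libraries labelled synj1+/-, and the ninth, PDGFRA, which oligodendrocyte precursors also express, was listed at 69.3 and 56.0. COL1A1, a chain of type I collagen, was listed at 47.2 in the libraries labelled synj1+/+ and 6.29 in those labelled synj1+/-. DCN was listed at 138.5 and 19.8, and LUM, which encodes lumican, at 22.7 and 2.94. The level summed over the list, less the added 1 of each gene, was 449 and 108, so 4.14-fold lower. Without PDGFRA it was 380 and 53.4, so 7.13-fold lower. Above the lesion 7 of the 9 were listed, with DPT and OGN not listed, and 1 was lower, COL3A1, at 5.26 and 1.73. All 7 nevertheless had a log2 ratio under 0 above the lesion, with summed levels of 97.2 and 79.6, or 34.6 and 22.3 without PDGFRA, where SFRP4 was at 0.06. Their part in the SFRP4 difference was not tested, and in bulk tissue fewer cells of a type and less RNA per cell cannot be told apart.

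Other marker lists were read in the same way. Of 7 leptomeningeal markers, genes of the membranes around the cord, 5 were listed below the lesion and 4 were lower, among them SLC6A13 at 15.8 and 5.70, with summed levels of 25.7 and 9.09 and with SLC22A6 and SLC13A4 not listed. Above the lesion FOXC1 alone of them was listed, at 2.22 and 2.19. Of the Schwann cell markers, EGR2 was lower below the lesion, at 42.4 and 17.8, NCMAP was at 20.6 and 16.0, and PRX and DHH were not listed at either site. Above the lesion NCMAP was higher, at 8.49 and 15.6, and EGR2 was at 31.9 and 33.3. Of 7 bone and cartilage markers SP7 alone was listed, at 7.39 and 7.75 below the lesion. Of 6 skeletal muscle markers ACTA1 and MYLPF were listed below, at summed levels of 6.06 and 7.45, and 0 above. The part of these lists in the SFRP4 difference was not tested.

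The cells of the cord itself were present at both sites. The neuronal gene SNAP25 was listed at 5272 and 6929 below the lesion, and the 5 of 6 neuronal markers listed there, all but RBFOX3, had log2 ratios above 0 with a median of 0.39 and 0 past 1.5-fold. The astrocyte markers were all listed, 0 of 5 past 1.5-fold at either site, with GFAP at 11117 and 8485 below. Of 5 oligodendrocyte markers MOG and MOBP were listed, and 0 were past 1.5-fold at either site. Below the lesion 2 of 5 listed microglia and macrophage markers were lower, AIF1 at 27.0 and 14.2 and CD68 at 200.5 and 116. CDH5 was the 1 of 4 endothelial markers that was lower there, and TMEM212 the 1 of 4 ependymal markers that was higher, at both sites. Of 4 mural markers 3 were listed and 0 were past 1.5-fold at either site.

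Genes were also ranked by the distance between their pair of genotype ratios, above and below the lesion, and that of SFRP4. Among all 12022 other genes listed at both sites the nearest was H19, at a distance of 0.26 on the log2 scale, listed at 4.17 and 5.08 above the lesion and at 46.6 and 4.34 below. MGP followed at 0.30, with 5.92 and 5.09 above and 101.5 and 11.0 below, and IGFBP6, which encodes an insulin-like growth factor binding protein, at 0.33, with 2.43 and 2.90 above and 29.6 and 3.63 below. These were ranked without a filter, a choice made after the values were seen, since SFRP4 is itself low above the lesion.

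Among the 9378 genes whose higher value less 1 was at least 10 at both sites, a filter that SFRP4 does not pass above the lesion, the nearest was POSTN, which encodes the matrix protein periostin, at a distance of 1.00. POSTN was listed at 12.2 and 8.28 above the lesion and at 85.9 and 15.1 below. RBM47, an RNA-binding protein, followed at 1.45 with 10.5 and 14.8 above and 34.6 and 9.19 below. IFITM1, an interferon-induced membrane protein, was at 1.49 with 16.6 and 12.2 above and 83.5 and 22.5 below. Each was lower in the below-lesion libraries labelled synj1+/-, which follows from their being chosen for closeness to SFRP4. Above the lesion the 3 differed in direction. EPDR1, the neighbour of SFRP4 on the chromosome, was listed at 78.8 and 79.6 above and at 78.6 and 80.9 below, and so did not share its pattern.

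The rest of the Wnt pathway was read from lists of 81 genes other than the members, of which 55 were listed at each site. Above the lesion 0 of 55 were lower and 2 were higher by 1.5-fold, and below it 3 were lower and 0 higher. As shares these were 0% and 3.64% above and 5.45% and 0% below, beside the 1.94% and 0.791% above and the 4.38% and 1.16% below for all listed genes. The share lower below the lesion was thus near that of all genes. Their median log2 ratio was -0.04 at both sites.

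Among other extracellular antagonists, 4 of 13 were listed above the lesion and 5 below. NOTUM, an enzyme that removes the lipid of Wnt proteins and is itself a target of the pathway, was higher above the lesion, at 6.23 and 12.6, and was at 14.6 and 14.8 below. IGFBP4, an insulin-like growth factor binding protein that also antagonises Wnt receptors, was lower below the lesion, at 87.9 and 47.9, and was at 58.3 and 42.9 above. APCDD1, the listed gene nearest the list's median below and, together with KREMEN1, above, was at 15.9 and 12.2 below. The list's median log2 ratio was -0.16 above and -0.38 below. DKK1, DKK4 and SOST, well known antagonists of the LRP co-receptors, were not listed at either site.

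Among ligands and the genes for their lipid attachment and secretion, 9 of 21 were listed at each site, with 0 past 1.5-fold above and 1 below. WNT6 was that gene, at 19.1 and 6.26, a log2 ratio of -1.61, and it was not listed above. WLS, which carries Wnt proteins to the cell surface, was at 63.4 and 43.9 below, short of 1.5-fold. WNT5A, a ligand of the non-canonical branches, was at 41.5 and 39.1 below. The gene nearest the list's median was WNT7B above, at 53.6 and 46.7, and WNT4 below, at 2.45 and 2.32.

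Receptors differed little. Of 16 Frizzled, LRP and other Wnt receptors 14 were listed at each site, 0 past 1.5-fold above and 1 below, where FZD2 was lower at 4.66 and 2.81. The genes nearest the list's medians of -0.15 and -0.14 were FZD3 above, at 9.45 and 8.56, and FZD1 below, at 13.1 and 11.9. LRP6, which many Dickkopf proteins bind, was at 25.8 and 22.1 above and at 26.0 and 25.4 below. Of 9 genes of the R-spondin branch, secreted amplifiers of Wnt signalling with their LGR receptors and E3 ligases, 8 were listed and 0 were past 1.5-fold at either site. RSPO2 came nearest, at 19.5 and 28.4 below, and LGR5, nearest the median, was at 5.44 and 5.33 above.

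Inside the cell, 14 of 15 transducers were listed at each site. LEF1, the transcription factor that partners beta-catenin, was higher above the lesion, at 16.7 and 25.3, and was at 27.0 and 23.2 below. CTNNB1, which encodes beta-catenin, was at 624 and 599 above and at 713 and 633 below. The genes nearest the list's median were APC2 above, at 384 and 388, and DVL3 below, at 76.1 and 81.5. Of 14 beta-catenin target genes, 12 were listed at each site. NOTUM and LEF1, already counted in other lists, were the 2 that were higher above the lesion, and 0 were past 1.5-fold below, where the list's median was 0.06. AXIN2, the target most used as a readout of canonical signalling, was at 45.5 and 45.7 above and at 43.6 and 49.0 below. CCND1, nearest the median below, was at 44.5 and 46.6. SP5 and TNFRSF19 of the targets were not listed below the lesion. Whether the SFRP4 difference bears on the beta-catenin targets was not tested.

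**Figure D4:**
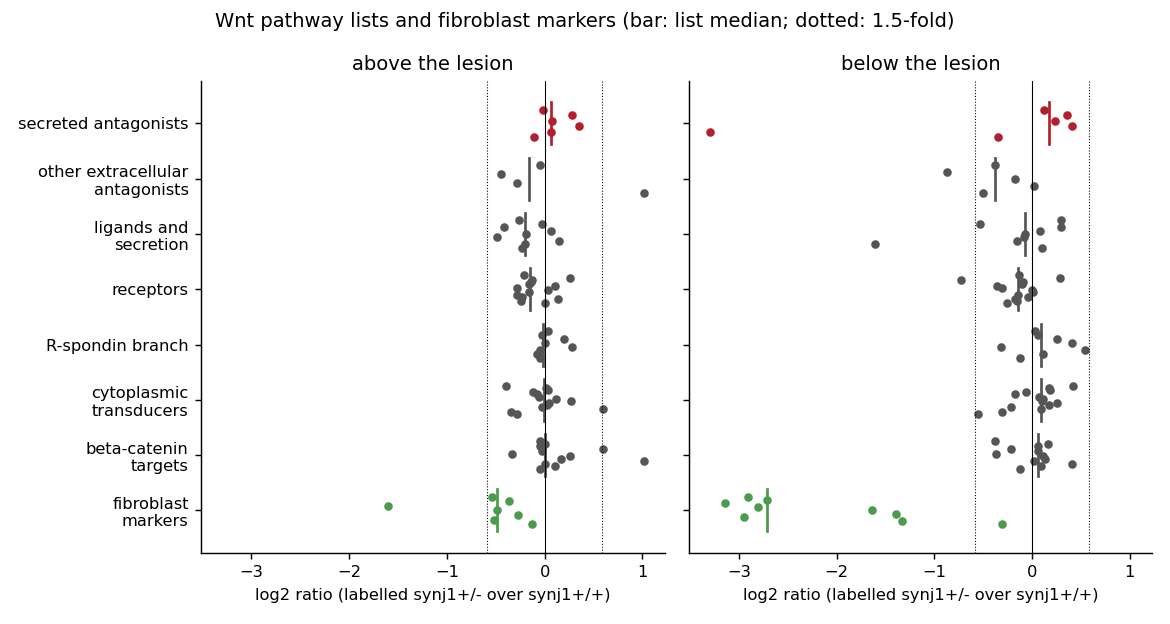
Log2 ratio between the libraries labelled synj1+/- (numerator) and synj1+/+ for each listed gene (points) of the secreted antagonists, 6 other Wnt lists and the fibroblast markers, above and below the lesion, with the list median as a bar and dotted lines at 1.5-fold. Below the lesion SFRP4 is at -3.30 and the 9 fibroblast markers range from -3.14 to -0.31 with a median of -2.71, while 52 of 55 other Wnt genes lie between the dotted lines.

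Promoter sequence, 250 bases before to 50 after the start in RefSeq on GRCm38.p6, was found for SFRP2, SFRP5 and FRZB. Both strands were searched for the TCF/LEF core, written as CTTTGAA or CTTTGAT and also as CTTTGTA or CTTTGTT, for the AP-1 site TGANTCA and for the TATA box TATAAA, and no match was found in these windows. Of 32851 promoters of the same length, 16.9% held a TCF/LEF core, 7.81% an AP-1 site and 13.6% a TATA box. The promoters of SFRP1, SFRP4 and DKK3 were not read here.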

How the data were processed

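The study extracted RNA with TRIzol and made TruSeq libraries. By its methods, libraries were cut at random to the read number of the shallowest one at their site, aligned with STAR and bowtie2, handled with samtools and summarised with cufflinks under upper quartile normalization. The submitters' processing notes give STAR 2.5.4b, Cuffdiff 1.3.0 and GRCm38.p6. The deposited table holds, for each gene and site, 1 expression value per group; the unit of these values is not given in the sources used here, other than that the lowest is exactly 1. It also holds the authors' fold changes, p-values and q-values, which were not used, as was a shorter list of the authors' DEGs. The table has 0 columns of single libraries, so depth and spread per library are unknown. ApoE3 groups were not analysed here.

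Log2 ratios were computed on the deposited values, with 1.5-fold as the limit for counting a gene. Levels were not compared between genes. The 3 symbols with more than 1 row at a site were left out of the comparison of sites. Genes named are all members and SYNJ1, up to 4 genes past the limit in each Wnt list with the gene nearest its median, the 3 genes nearest to SFRP4 among genes with a higher value less 1 of at least 10 at both sites, and defining markers; H19, SMIM22, EPDR1, the genes with larger site ratios and those 5-fold over the other groups were chosen after their values were seen, as were WLS, WNT5A, LRP6, RSPO2, CTNNB1 and AXIN2. Where a list had an even number of listed genes, the 2 middle genes were equally near its median, and the first by name was taken. The members and lists were chosen with earlier results of these data known. Alternatives were a fold of 2, a log2 limit of 0.32, pseudocounts of 0 and 10, filters at 1 and 10, median centring and rescaling to the 75th percentile. The ranking without a filter and the sum without PDGFRA were added after seeing the data. Protein identity was planned and not run. The counts and summed level of the Schwann cell list are not reported here. The log2 ratio, its 1.5-fold count and median centring were tested on simulated data with set differences. Ranks, site ratios, distances and summed levels were not tested in this way. Python 3.11.15, numpy 2.4.6, pandas 2.3.3 and matplotlib 3.10.9 were used.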

Additional observations from a re-analysis of the deposited data

How the results depend on the processing

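No paired analysis was possible because the table lists no single libraries, and for the same reason no library could be left out in turn. SFRP4 stayed past the fold limit below the lesion under all 8 alternatives, with log2 ratios from -3.82 without a pseudocount to -1.70 with a pseudocount of 10, and no log2 ratio of a member changed sign. With a log2 ratio of 0.32 as the limit in place of 1.5-fold, 1 of 6 members was higher above the lesion. Below it, 2 members were lower and 2 higher. In the libraries labelled synj1+/+, 2 members were higher below than above, and the share of all genes past that limit between sites is not given here. With the same limit, 1017 of all 13647 listed genes were lower and 570 higher above the lesion. Below it, 1424 of 12338 were lower and 995 higher. Nothing is read from these counts of members. Of the other Wnt genes, 6 were lower and 2 higher above, against 0 and 2 at 1.5-fold, and 10 were lower and 3 higher below. With a fold of 2 the listed genes numbered 77 lower and 18 higher above and 161 lower and 20 higher below, with 1 other Wnt gene higher above and 1 lower below. Without a pseudocount 358 listed genes were lower and 173 higher above, and 664 were lower and 250 higher below. Of the other Wnt genes, 4 were then lower and 1 higher below. With a pseudocount of 10, 71 were lower and 14 higher above and 188 lower and 22 higher below, and 0 other Wnt genes were higher above. Among genes whose higher value less 1 was at least 10, which kept 3 members above and 4 below, 149 were lower and 59 higher above and 348 lower and 79 higher below. The main counts were 265 and 108 above and 541 and 143 below. The low values of SFRP4 in 3 of 4 groups limit its fold, because the added 1 makes up much of them.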
